A study of Drosophila melanogaster with 2 samples.

Results

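The aminoacyl-tRNA synthetase genes described here are the 21 rows of the deposited table, out of 13989, whose symbol begins with Aats-. They were compared in wing discs of enGFP+Tai and of enGFP larvae. All 21 were found in the reference under current names, and none was listed at 0. By those names 6 are mitochondrial forms, whose current symbols end in -m, and the other 15 are called cytosolic here. For 5 of the 15 the reference names no separate mitochondrial gene. Whether those 5 also serve mitochondria was not examined, so cytosolic here does not mean cytosolic only. Both groups were wandering third-instar Drosophila melanogaster, sorted for GFP fluorescence before dissection. The enGFP+Tai discs (genotype label Tai+/GFP+) expressed green fluorescent protein and Taiman, a coactivator of the ecdysone receptor, under the engrailed driver. The enGFP discs (genotype label GFP+) expressed green fluorescent protein under the same driver. That driver is active in the posterior compartment, so each value averages over cells with and without the transgenes. Each genotype was represented by 1 sample, made from a pool of 80 to 100 discs. The design text speaks of triplicates, but 1 value per gene and genotype was analysed here. The differences therefore have no replicate check, and no test between the genotypes was made.

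Aminoacyl-tRNA synthetases join each amino acid to its transfer RNA and so supply the charged tRNAs that ribosomes read. They fall into class I and class II, which have unrelated catalytic folds. Mitochondria translate the few proteins of their own genome with a separate ribosome, and their synthetases are nuclear-encoded proteins that are imported. In mammals several cytosolic synthetases sit in a complex held together by the scaffold proteins AIMP1, AIMP2 and AIMP3. Growing tissues such as the larval wing disc depend on cytosolic protein synthesis.

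The libraries matched their labels at the driven gene, since tai had an FPKM (fragments per kilobase of transcript, scaled to sequencing depth) of 879 in enGFP+Tai discs and 27.1 in enGFP discs. The 10 wing disc markers were present at 25.6 to 128 FPKM in both libraries. From the steps between low values, the libraries were estimated at 10622032 fragments for enGFP+Tai and 8129407 for enGFP. Most comparisons below use the difference of log2(FPKM + 1), enGFP+Tai minus enGFP, among the 8275 genes that reached 1 FPKM in at least 1 genotype. The median of this difference over all these genes was -0.02. Ratios are plain FPKM ratios.

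Transcripts of the synthetases were slightly less abundant in enGFP+Tai discs. Of the 21 genes, 20 had a lower value in enGFP+Tai than in enGFP, while 53.8% of all genes did. Under 4 other scalings of the libraries 16 to 19 members did, where 41.9% to 50.4% of all genes did. The lean was not particular to synthetases. Without rescaling, 76.5% of 81 cytosolic and 84.5% of 71 mitochondrial ribosomal protein genes were lower too. The median log2 difference of the 21 was -0.21, and the members ranged from -0.56 for Aats-phe to 0.01 for Aats-glupro. No member was 2-fold different in either direction, whereas 1.81% of all genes were at least 2-fold lower and 6.31% at least 2-fold higher. In whole discs, fewer cells of a type and less RNA per cell cannot be told apart. Summed over the 21 genes, FPKM came to 1485 in enGFP+Tai and 1670 in enGFP, a ratio of 0.889. The FPKM of all genes above the minimum had a ratio of 0.957 when summed in the same way.

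**Figure D1:**
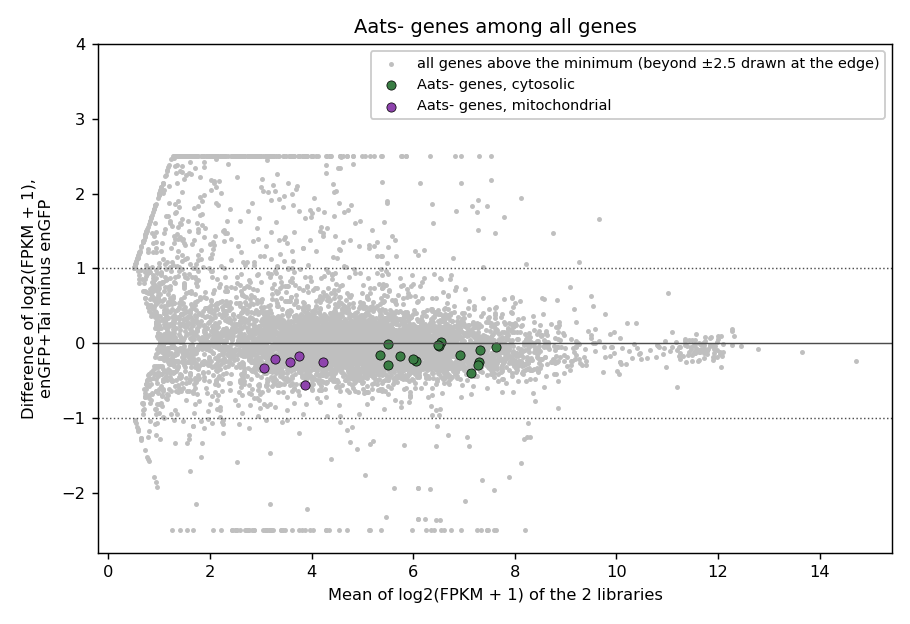
Difference of log2(FPKM + 1), enGFP+Tai minus enGFP, against the mean of log2(FPKM + 1) of the libraries, for 8275 genes (grey) and for the cytosolic (green) and mitochondrial (purple) Aats- genes; dotted lines mark a 2-fold difference. The 21 members lie between -0.56 and 0.01, inside the main band of genes, and 20 of them lie below 0 (16 to 19 under 4 other scalings).

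The cytosolic forms were the more abundant. In enGFP+Tai they ranged from 37.4 to 194 FPKM, with a median of 88.6, and in enGFP from 42.0 to 201 FPKM, with a median of 90.5. The mitochondrial forms ranged from 6.46 to 16.2 FPKM in enGFP+Tai and from 8.39 to 19.5 FPKM in enGFP. Among the Aats- genes, the lowest cytosolic form therefore lay above the highest mitochondrial form in both libraries. With the synthetases outside the Aats- set included, this did not hold in enGFP, as given below. The median difference was -0.16 for the 15 cytosolic forms and -0.25 for the 6 mitochondrial forms. These medians differed by 0.09 and the ranges of the groups overlapped, and whether the forms differ was not tested.

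**Figure D2:**
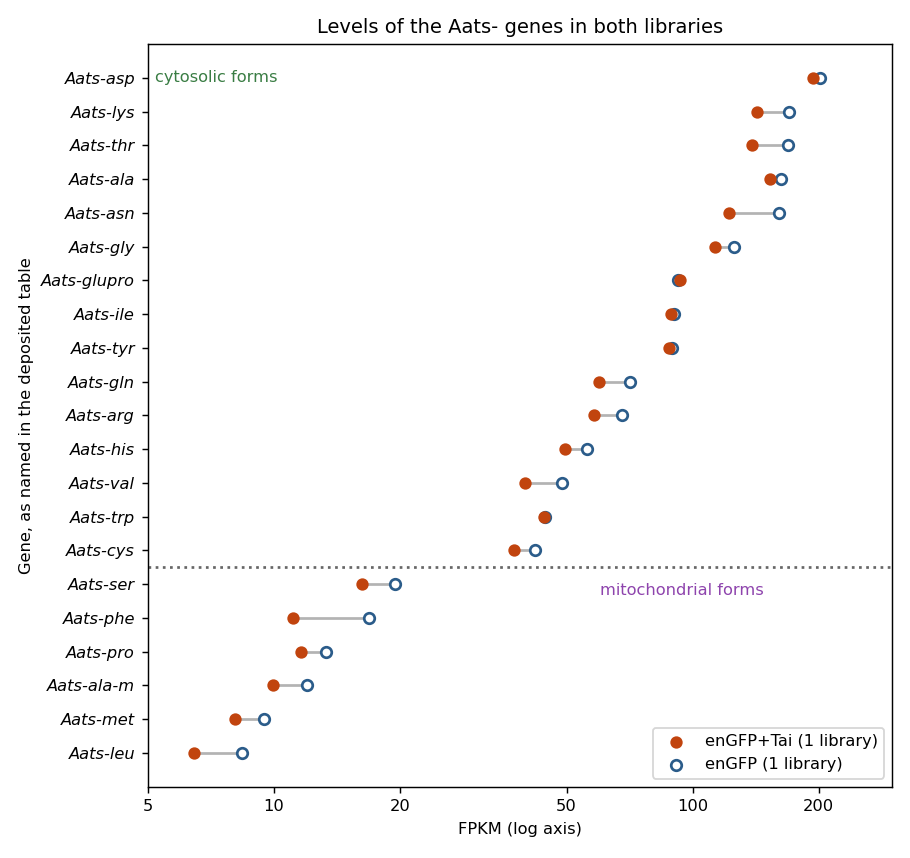
FPKM of the 21 Aats- genes (log axis) in the enGFP+Tai library (filled) and the enGFP library (open), cytosolic forms above the dotted line and mitochondrial forms below it, each ordered by the enGFP value. Mitochondrial forms stay at or under 19.5 FPKM, and cytosolic forms at or over 37.4 FPKM.

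Among the class II cytosolic enzymes, Aats-asn, which charges the asparagine tRNA, was furthest from equality. It had 122 FPKM in enGFP+Tai and 161 FPKM in enGFP, a ratio of 0.758. The 95% counting interval of that ratio, from the estimated fragments and covering counting error only, was 0.715 to 0.804. Aats-thr, the threonine enzyme (2L:12103751-12107170 in BDGP6, plus strand), had 138 FPKM in enGFP+Tai and 169 FPKM in enGFP. Aats-lys, the lysine enzyme on the X chromosome, had 142 FPKM in enGFP+Tai and 170 FPKM in enGFP. Their ratios were alike, 0.819 for Aats-thr and 0.839 for Aats-lys. Aats-gly, the glycine enzyme, had 113 FPKM in enGFP+Tai and 126 FPKM in enGFP. Aats-his, the histidine enzyme, had 49.6 FPKM in enGFP+Tai and 56.0 FPKM in enGFP. The 2 remaining class II genes lay closer to equal values. Aats-ala, the alanine enzyme (2L:8378262-8381764, minus strand), had 153 FPKM in enGFP+Tai and 162 FPKM in enGFP. Aats-asp, the aspartate enzyme, was the most abundant member in both libraries, with 194 FPKM in enGFP+Tai and 201 FPKM in enGFP. The counting interval of its ratio, 0.915 to 1.01, included 1.

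The class I cytosolic enzymes had differences from -0.28 to -0.01, where those of class II ran from -0.40 to -0.05. Aats-val, the valine enzyme, had 39.9 FPKM in enGFP+Tai and 48.8 FPKM in enGFP, a ratio of 0.817. Aats-gln, the glutamine enzyme, had 59.7 FPKM in enGFP+Tai and 70.8 FPKM in enGFP. Aats-arg, the arginine enzyme (X:15841769-15844145, minus strand), had 58.2 FPKM in enGFP+Tai and 67.7 FPKM in enGFP. Aats-val, Aats-gln and Aats-arg all had counting intervals below 1. Aats-cys, the cysteine enzyme, had 37.4 FPKM in enGFP+Tai and 42.0 FPKM in enGFP, with an interval of 0.808 to 0.982. For the other 3 enzymes of this class the interval included 1. Aats-ile, the isoleucine enzyme, had 88.6 FPKM in enGFP+Tai and 90.5 FPKM in enGFP. Aats-tyr, the tyrosine enzyme, had 87.8 FPKM in enGFP+Tai and 89.3 FPKM in enGFP. Aats-trp, the tryptophan enzyme, had 44.2 FPKM in enGFP+Tai and 44.5 FPKM in enGFP, the nearest to a ratio of 1 of all members (0.994, interval 0.887 to 1.12). Medians by class were similar, -0.17 for the 7 class II genes and -0.16 for the 7 class I genes.

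Aats-glupro encodes a fused enzyme that charges both glutamate and proline tRNAs, and so belongs to both classes. It was the single member with a higher value in enGFP+Tai, 93.1 FPKM, against 92.3 FPKM in enGFP, and its interval of 0.954 to 1.07 included 1. The 6 Aats- genes whose mammalian counterparts belong to the synthetase complex (those for arginine, aspartate, glutamine, isoleucine, lysine and glutamate with proline) had a median difference of -0.13. The other 9 cytosolic members had -0.16. For 5 cytosolic members (Aats-gln, Aats-gly, Aats-his, Aats-lys and Aats-thr) the reference names no separate mitochondrial gene, and their differences ran from -0.29 to -0.15 with a median of -0.24. The 10 members that do have a mitochondrial counterpart ran from -0.40 to 0.01 with a median of -0.07. The ranges of these groupings overlap, and the differences between them were not tested.

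The 6 mitochondrial forms were all lower in enGFP+Tai. Aats-phe, now PheRS-m, had the largest difference of any member, with 11.1 FPKM in enGFP+Tai and 16.8 FPKM in enGFP, a ratio of 0.660 and a counting interval of 0.531 to 0.826. Aats-leu, now LeuRS-m (3L:4825853-4829038, plus strand), had 6.46 FPKM in enGFP+Tai and 8.39 FPKM in enGFP, with an interval of 0.626 to 0.945. Aats-ala-m, now AlaRS-m, had 9.94 FPKM in enGFP+Tai and 12.0 FPKM in enGFP, with an interval of 0.704 to 0.973. For the other 3 the counting error alone, on the shortest transcript, spanned equal values. Aats-ser and Aats-met also have much longer transcripts, on which the intervals would be narrower and were not computed. Aats-ser, now SerRS-m, had 16.2 FPKM in enGFP+Tai and 19.5 FPKM in enGFP. Aats-met, now MetRS-m, had 8.06 FPKM in enGFP+Tai and 9.49 FPKM in enGFP. Aats-pro, now ProRS-m, had 11.6 FPKM in enGFP+Tai and 13.3 FPKM in enGFP. The mitochondrial forms rested on an estimated 127 to 319 fragments per library and the cytosolic forms on 531 to 4782, counted on the shortest annotated transcript, so the ratios of the mitochondrial forms are the less precise.

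Over the whole set, the counting interval lay below 1 for 13 members (10 cytosolic, 3 mitochondrial), included 1 for 8 and lay above 1 for 0. Of 7828 genes with such an interval, 24.1% lay below 1 and 19.8% above. Abundant genes have narrow intervals, so this share depends on level as well as on the difference. At a narrower threshold (25% higher, or inversely 20% lower, on the FPKM + 1 scale), 3 members were lower (Aats-asn, Aats-phe and Aats-leu) and 0 higher. Among all genes, 12.1% were lower and 16.1% higher at this 25% threshold, and 3 of 21 is close to that background. Of the 21 members, 0 were called in the authors' deposited table, where 0.131% of the 8374 genes tested were, so a count of 0 is what that share gives. The members' p-values in the authors' deposited table ran from 0.3222 for Aats-pro to 0.99245 for Aats-trp.

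**Figure D3:**
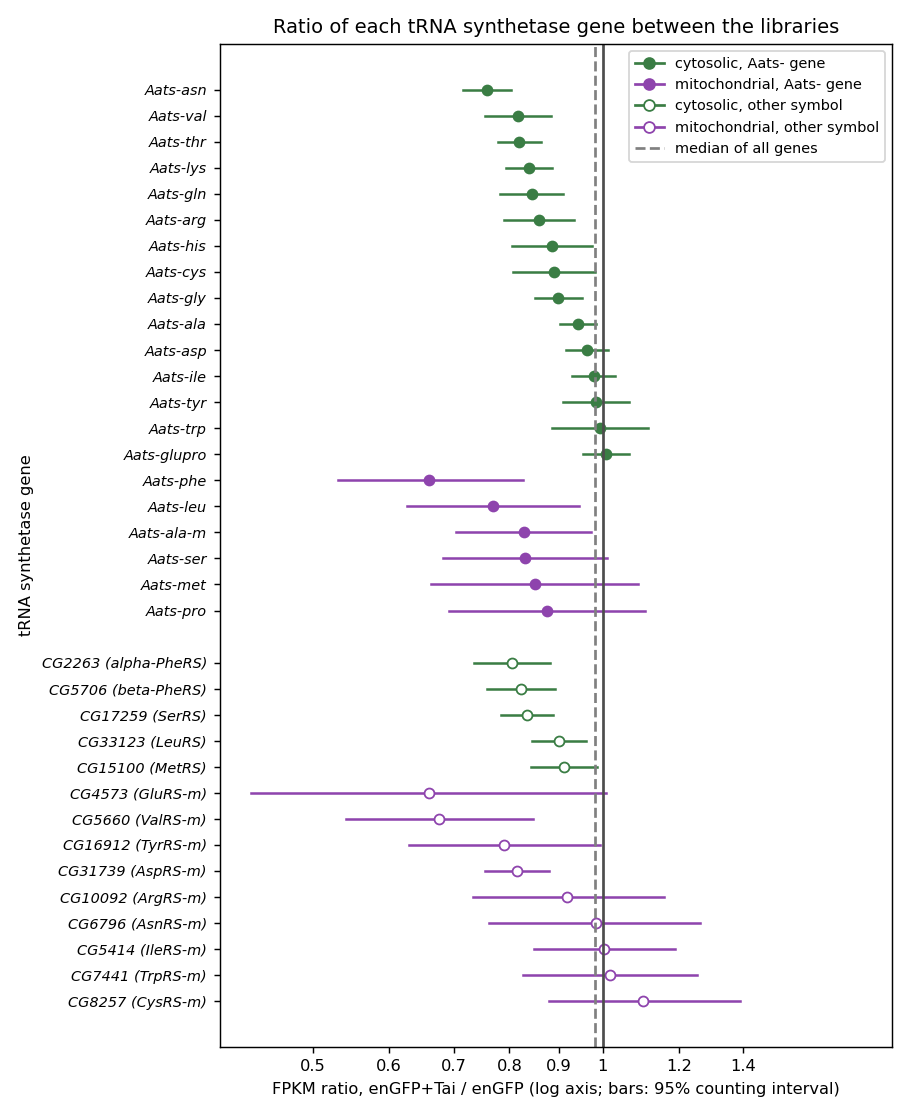
FPKM ratio of enGFP+Tai over enGFP (log axis) for the 21 Aats- genes (filled) and 14 further synthetase genes (open), cytosolic in green and mitochondrial in purple; bars are 95% counting intervals, the solid line is a ratio of 1 and the dashed line the median of all genes, 0.981. Intervals lie below 1 or include it, and no interval lies above 1.

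A further 14 rows of the table encode synthetases under CG numbers, and were found through their current names. All 5 cytosolic ones were lower in enGFP+Tai, with a median of -0.26 and counting intervals below 1. CG2263 and CG5706 encode the alpha and beta subunits of the cytosolic phenylalanine enzyme, which works as a complex of both. CG2263 had 61.2 FPKM in enGFP+Tai and 76.0 FPKM in enGFP, and CG5706 had 65.6 FPKM in enGFP+Tai and 79.7 FPKM in enGFP. The subunits thus had close levels and close ratios, 0.805 and 0.822. CG17259 (SerRS) had 128 FPKM in enGFP+Tai and 153 FPKM in enGFP. CG33123 (LeuRS) had 52.1 FPKM in enGFP+Tai and 57.8 FPKM in enGFP, and CG15100 (MetRS) had 40.4 FPKM in enGFP+Tai and 44.3 FPKM in enGFP.

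The 9 mitochondrial synthetases outside the Aats- set were more mixed, with 6 below 0, 3 above 0 and a median of -0.11. Over all 15 mitochondrial forms, 12 were below 0, and over all 20 cytosolic forms 19 were. CG5660 (ValRS-m) had 4.92 FPKM in enGFP+Tai and 7.26 FPKM in enGFP. CG31739 (AspRS-m), the most abundant of the 15 mitochondrial forms, had 36.0 FPKM in enGFP+Tai and 44.1 FPKM in enGFP. In enGFP it lay above the cytosolic Aats-cys, at 42.0 FPKM, so the levels of the forms overlapped there. In enGFP+Tai it lay below Aats-cys, at 37.4 FPKM. CG16912 (TyrRS-m) had 11.3 FPKM in enGFP+Tai and 14.3 FPKM in enGFP. The intervals of CG5660, CG31739 and CG16912 lay below 1 and those of the other 6 included it. CG8257 (CysRS-m) had 11.1 FPKM in enGFP+Tai and 10.1 FPKM in enGFP. CG7441 (TrpRS-m) had 10.3 FPKM in enGFP+Tai and 10.1 FPKM in enGFP. CG5414 (IleRS-m) had 11.4 FPKM in enGFP+Tai and 11.3 FPKM in enGFP, and these were the 3 above 0. CG10092 (ArgRS-m) had 9.42 FPKM in enGFP+Tai and 10.3 FPKM in enGFP, and CG6796 (AsnRS-m) had 10.8 FPKM in enGFP+Tai and 11.0 FPKM in enGFP. CG4573 (GluRS-m) was the least abundant synthetase, with 2.81 FPKM in enGFP+Tai and 4.26 FPKM in enGFP, from an estimated 44 and 51 fragments. It lies 171 bp from Aats-tyr on the same strand of 3L, yet the ratios were 0.660 for CG4573 and 0.984 for Aats-tyr, with overlapping intervals of 0.431 to 1.01 and 0.909 to 1.06.

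With all 35 synthetase rows, cytosolic and mitochondrial levels could be set side by side for 15 amino acids, as 16 pairs because the phenylalanine enzyme has 2 cytosolic subunits. The cytosolic level was the higher in all 16 pairs in both libraries. The ratio of cytosolic to mitochondrial FPKM had a median of 7.78 in enGFP+Tai and 6.66 in enGFP. It was lowest for cysteine, at 3.37 in enGFP+Tai and 4.16 in enGFP, and highest for glutamate, at 33.1 in enGFP+Tai and 21.7 in enGFP. On the log2(FPKM + 1) scale the difference of the mitochondrial form was below that of the cytosolic form in 10 pairs and above it in 6. The pairs are not all distinct. Aats-glupro is the cytosolic form for both glutamate and proline, and Aats-phe the mitochondrial form in both phenylalanine pairs. All of these pairs are among the 10. Forms whose symbols end in -m made up 8.84% of the summed synthetase FPKM in enGFP+Tai and 9.18% in enGFP.

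**Figure D4:**
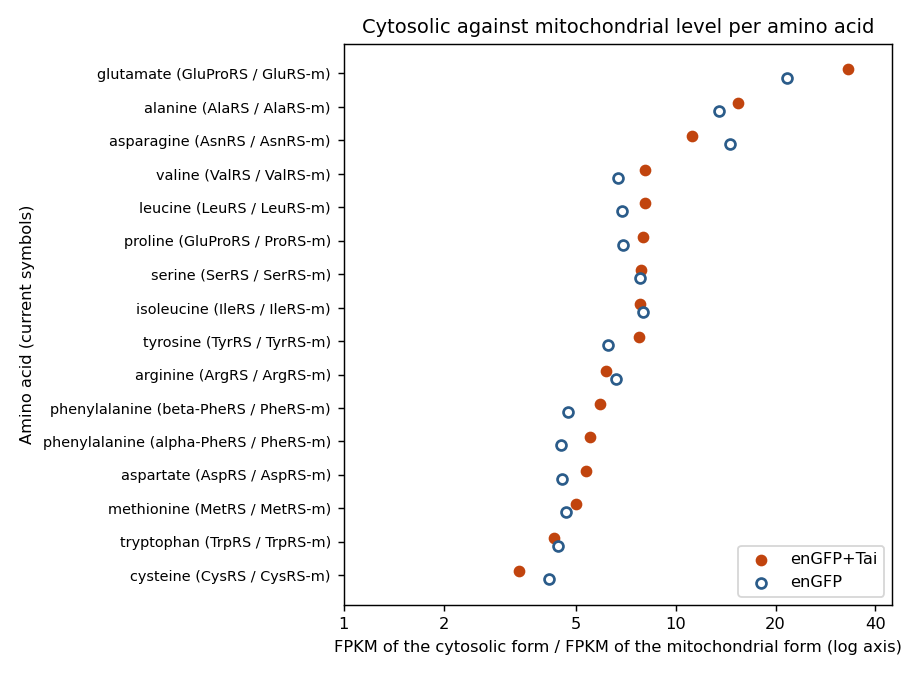
Ratio of the FPKM of the cytosolic form to that of the mitochondrial form (log axis) for 16 pairs in 15 amino acids, in enGFP+Tai (filled) and enGFP (open). All points lie above 3, and the ratio is higher in enGFP+Tai in 11 of 16 pairs. The pairs are not all distinct, since GluProRS and PheRS-m each stand in more than 1.

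Some of these genes overlap others. By the loci of the authors' table, 5 members share theirs with other genes, 3 of them mitochondrial forms, and the TruSeq version 2 kit does not mark strand, so fragments of overlapping genes may be shared. Aats-gln shares a locus with CG11858, which had 103 FPKM in enGFP+Tai and 126 FPKM in enGFP. Aats-ser shares one with CG6218, which went the other way, with 16.9 FPKM in enGFP+Tai and 13.5 FPKM in enGFP. The same locus holds the more abundant Sra-1, which had 51.5 FPKM in enGFP+Tai and 52.7 FPKM in enGFP. Aats-ala-m shares its locus with 3 genes. CG10671 had 7.86 FPKM in enGFP+Tai and 5.74 FPKM in enGFP, CG4623 had 0.478 FPKM in enGFP+Tai and 0.268 FPKM in enGFP, and Gen had 8.44 FPKM in enGFP+Tai and 9.94 FPKM in enGFP. Of these, CG10671 and CG4623 went the other way from Aats-ala-m. Aats-cys shares its locus with CG10731, which had 11.8 FPKM in enGFP+Tai and 11.1 FPKM in enGFP, and with Ext2, listed at 0 in both. Aats-pro shares one with CG1246, which had 1.2 FPKM in enGFP+Tai and 1.5 FPKM in enGFP. Outside the Aats- set, the mitochondrial CG16912, CG5414, CG6796, CG10092, CG8257 and CG4573 also share loci with other genes. Of these, CG8257 and CG5414 had differences above 0. The part of these neighbours in the values of the members and of the other synthetases was not tested. In BDGP6, 9 members overlap another gene, 2 of them on the same strand, and Aats-asp, Aats-glupro, Aats-his and Aats-met are among the 9 although they share no locus in the authors' table. The 21 members are spread over the genome, with 3 on X, 3 on 2L, 4 on 2R, 6 on 3L and 5 on 3R, and medians per arm from -0.29 on 2L to -0.16 on 3L.

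The scaffold genes of the synthetase complex had values like those of the enzymes. CG8235 (AIMP1) had 47.7 FPKM in enGFP+Tai and 58.9 FPKM in enGFP, and CG30185 (AIMP3) had 40.6 FPKM in enGFP+Tai and 49.7 FPKM in enGFP. CG12304 (AIMP2) had 115 FPKM in enGFP+Tai and 129 FPKM in enGFP. All 3 were below 0, with a median of -0.28, and 0 of 3 passed the 25% threshold. Among all genes, 53.8% were below 0, and 12.1% were lower and 16.1% higher at this threshold.

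Genes that act on charged tRNA after the synthetases encode translation factors and the ribosome. The 9 cytosolic elongation and termination factors had a median of -0.08, with 0 of 9 lower and 1 of 9 higher at the 25% threshold. That gene was Ef1alpha100E, a form of the factor that brings charged tRNA to the ribosome, with 25.0 FPKM in enGFP+Tai and 12.9 FPKM in enGFP. The far more abundant form Ef1alpha48D had 6911 FPKM in enGFP+Tai and 7314 FPKM in enGFP. Reads shared by these related genes may have been divided between them, which was not examined, so the value of Ef1alpha100E is uncertain. Ef1beta, part of its exchange factor, had 1060.4 FPKM in enGFP+Tai and 1280.4 FPKM in enGFP, and the release factor gene Elf had 129 FPKM in enGFP+Tai and 142 FPKM in enGFP. Of 9 mitochondrial translation factors, 7 were below 0, with a median of -0.12, and at the 25% threshold 1 was lower and 0 higher. The gene past the threshold was EfTuM, which carries charged tRNA to the mitochondrial ribosome, with 87.8 FPKM in enGFP+Tai and 119 FPKM in enGFP. CG12413 (mIF2, an initiation factor) had 6.05 FPKM in enGFP+Tai and 7.72 FPKM in enGFP, and CG5705 (mRF1, a release factor) had 5.90 FPKM in enGFP+Tai and 7.19 FPKM in enGFP. Of the ribosomal protein genes, the 81 cytosolic ones had a median of -0.07, with 62 below 0, and 0 passed the 25% threshold. The 71 mitochondrial ones had a median of -0.18, with 60 below 0. At the 25% threshold 19 of the 71 were lower and 1 higher, where 12.1% of all genes were lower and 16.1% higher. The largest difference among the mitochondrial ones was at mRpL30, with 85.4 FPKM in enGFP+Tai and 204 FPKM in enGFP.

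Upstream of charging, 14 genes of tRNA synthesis and maturation had a median of -0.15, with 12 of 14 below 0, 2 lower and 0 higher at the 25% threshold. Among all genes, 53.8% were below 0, and 12.1% were lower and 16.1% higher at this threshold. Elp2, a subunit of the Elongator complex that modifies tRNA wobble bases, had 22.5 FPKM in enGFP+Tai and 57.2 FPKM in enGFP. CG9987 (RtcB, a tRNA ligase) had 37.5 FPKM in enGFP+Tai and 53.0 FPKM in enGFP. Rpp30, a subunit of RNase P, had 36.0 FPKM in enGFP+Tai and 44.2 FPKM in enGFP, short of that threshold.

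Genes of the amino acid stress response, through which the ATF4 factor raises synthetase transcripts in mammals, did not share one direction. Of 13 genes, 3 were past the 25% threshold on the lower side and 4 on the higher side, and the median was -0.03. Among all genes, 12.1% were lower and 16.1% higher at this threshold. Of the 13 genes, 7 (53.8%) were below 0, the same share as over all genes (53.8%). The gene of the fly ATF4, crc, had 999 FPKM in enGFP+Tai and 759 FPKM in enGFP. The serine synthesis gene aay had 29.5 FPKM in enGFP+Tai and 1.75 FPKM in enGFP, and CG11299 (Sesn, a sestrin) had 8.54 FPKM in enGFP+Tai and 1.13 FPKM in enGFP. In the other direction, Nmdmc, a folate enzyme of mitochondria, had 37.6 FPKM in enGFP+Tai and 57.3 FPKM in enGFP. Of 7 amino acid transporter genes above the minimum, 2 passed the same threshold on the lower side and 2 on the higher side, and the median was 0.20. CG1139 had 9.57 FPKM in enGFP+Tai and 2.39 FPKM in enGFP, path had 46.9 FPKM in enGFP+Tai and 76.7 FPKM in enGFP, and slif had 2.80 FPKM in enGFP+Tai and 1.36 FPKM in enGFP.

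**Figure D5:**
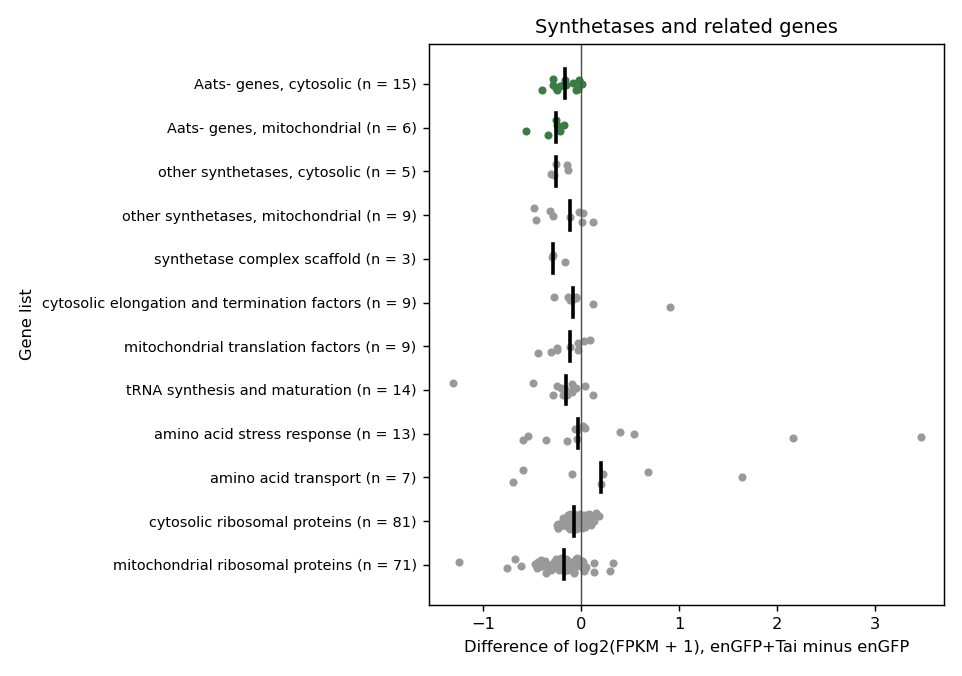
Difference of log2(FPKM + 1), enGFP+Tai minus enGFP, of single genes (points) and list medians (bars) for the Aats- genes (green) and related lists (grey). Medians of the cytosolic and mitochondrial Aats- genes lie at -0.16 and -0.25, that of the cytosolic ribosomal protein genes at -0.07, and the widest spread is in the amino acid stress response.

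Markers of fat body, blood cells and salivary gland were low and higher in enGFP+Tai. All 5 fat body markers were higher in enGFP+Tai, summing to 29.2 FPKM in enGFP+Tai and 18.7 FPKM in enGFP. All 4 blood cell markers above the minimum were higher too, and the 5 listed summed to 10.9 FPKM in enGFP+Tai and 4.61 FPKM in enGFP. The 6 salivary gland markers summed to 12.3 FPKM in enGFP+Tai and 0.786 FPKM in enGFP, where Sgs7 and Sgs8 were listed at 0. Most of the enGFP+Tai sum came from Sgs7, at 6.93 FPKM, and Sgs8, at 2.60 FPKM. Such low values may rest on few fragments, and no counting interval was given for them. The 4 adult muscle precursor markers summed to 54.1 FPKM in enGFP+Tai and 56.6 FPKM in enGFP, and 0 of 4 passed the 25% threshold. Among all genes, 12.1% were lower and 16.1% higher at this threshold. The 4 neuron markers summed to 9.14 FPKM in enGFP+Tai and 9.80 FPKM in enGFP, mostly elav, with 7.19 FPKM in enGFP+Tai and 9.32 FPKM in enGFP. The other neuron markers were under 1 FPKM and higher in enGFP+Tai. There n-syb had 0.828 FPKM in enGFP+Tai and 0.103 FPKM in enGFP, Syt1 had 0.950 FPKM in enGFP+Tai and 0.261 FPKM in enGFP, and brp had 0.173 FPKM in enGFP+Tai and 0.115 FPKM in enGFP. The wing disc markers summed to 682 FPKM in enGFP+Tai and 714 FPKM in enGFP, with 8 of 10 below 0 and a median difference of -0.03. The part of these tissues in the synthetase differences was not tested.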

How the data were processed

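RNA of wing discs from 2 genotypes, 1 sample each, had been sequenced. Per the submitters' processing notes the build was dm6 and the tools included Cuffdiff 2.2.1, TopHat2 2.0.12 and CASAVA 1.4, with no roles stated. Neither the annotation nor the handling of replicates is stated there. The deposited table holds FPKM, scaled by the authors, and, per the file headers, the authors' p-value and q-value per gene. Loci in the table did not match the current annotation, so coordinates and lengths came from BDGP6 (Ensembl release 115), reached through RefSeq symbols and synonyms, to which 13538 of 13989 genes matched.

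Differences were log2((enGFP+Tai FPKM + 1) / (enGFP FPKM + 1)), which understates low genes, with a minimum FPKM of 1 in either genotype. Fragments were estimated from the commonest ratio among single-transcript genes (0.765, at 169 genes) and lengths less 215 nt. Of low single-transcript genes, 75.7% (enGFP+Tai) and 77.1% (enGFP) came out whole within 0.1, where chance gives 20%. The 95% intervals are exact (Clopper-Pearson, on the shortest transcript) and cover counting error only. Calculations used Python 3.11.15 and scipy 1.17.1 and were tested on simulated fragments.

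Members, lists and groupings were chosen with earlier results of these data known. All Aats- and other synthetase rows are named, and up to 3 genes per list with the largest absolute difference; of the ribosomal proteins 1 mitochondrial gene is named and no single cytosolic gene is reported here, and Ef1alpha48D and crc were named after their values were seen. Of the listed names, 4 had no match in the table. Alternatives were pseudocounts, minimums, scalings, folds, the naming of forms and leaving out genes at 0.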

Additional observations from a re-analysis of the deposited data

How the results depend on the processing

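At 2-fold, 0 members were lower and 0 higher in every alternative pseudocount, minimum and scaling run. The median difference of the Aats- genes (-0.21) ran from -0.22 with a pseudocount of 0.1 to -0.14 when centred on the cytosolic ribosomal protein genes. The median of the cytosolic forms ran from -0.19 to -0.09, that of the mitochondrial forms from -0.27 to -0.18, and their gap from 0.05 to 0.10. The number of members below 0 (20) was 19 when centred on all genes or scaled to a common 75th percentile, 17 when centred on protein-coding genes of FPKM 10 or more, and 16 when centred on the cytosolic ribosomal protein genes; both of the last were chosen after seeing the data. Members closest to equality thus changed sign with the scaling. The number of all genes past the threshold (150 lower, 522 higher) was 97 and 284 with a pseudocount of 5, 325 and 813 at 1.5-fold and 999 and 1330 at the 25% threshold. Without genes at 0 it was 96 lower. At the 25% threshold 3 members were lower. Among the 478 alternative values, for 52 results, 463 kept within set limits (the counting interval of a gene, the exact interval of a median, 0.1 for the gap, 1.5 times for a count) and 15 moved. Many of the 463 could not move, so that count is no measure of robustness. The difference of a single gene does not depend on the minimum FPKM or on leaving out genes at 0. Centring cannot change the gap. No paired analysis was possible because each genotype had 1 sample. For the same reason no replicate could be left out. Depth limits the mitochondrial forms most.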
